A study of Rattus norvegicus with 120 samples.

Results

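The eyes of 120 rats were ranked by a score of amino acid stress, and the 30 animals of highest score were compared with the 30 of lowest score. The score was built from Chac1, which encodes an enzyme that degrades glutathione, and Mthfd2, which encodes a mitochondrial enzyme of folate metabolism. The groups were chosen by the measured levels of these genes, so what Chac1 and Mthfd2 did in them is a description of the choice. Every animal was an adult male of 12 weeks bred as an F2 from SR/JrHsd and SHRSP, a pair of inbred strains. An array held RNA of both eyes of 1 animal, and the deposited values are log2 levels. No label gives a treatment, a diet or a disease state, so high and low name positions in a ranking of one population. The array titles carry an S code (10 codes) and an L code (22 codes), neither of which is explained in the labels. Titles of S codes 1 to 5 also carry a date, the same for every array of an S code, and the labels do not say what was done on it. The S code mean was removed before scoring, and the other 60 animals are called the middle animals.

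Cells that run short of an amino acid, or that have unfolded protein in the endoplasmic reticulum, phosphorylate the translation factor eIF2 alpha. General translation then slows, while translation of the transcription factor ATF4 goes up. ATF4, paired with C/EBP proteins, switches on genes that make, import and activate amino acids, and Chac1 and Mthfd2 are known targets of this route, which is called the integrated stress response. In the eye the same route is known from photoreceptors and ganglion cells under stress.

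The DNA letters that ATF4 and its C/EBP partners bind are known as the C/EBP-ATF response element, with the core TGATGCAA. These letters were searched on both strands of a window from 250 bases before to 50 bases after each gene's start in RefSeq promoter sequences of the GRCr8 assembly. The search was made with the expression results known. Of 10 genes of the stress lists described below that rose and held the letters, all but Aars1 and Nars1 are printed, after Chac1. The 4 genes with the largest increases, Asns, Atf3, Sesn2 and Trib3, are not among the 10. Each line gives one stretch with the core in capitals.

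Chac1 (chr3:126795954-126795981, printed from the - strand): ctagcaggagTGATGCAAcggcggagaa
Slc1a4 (chr14:98761780-98761807, printed from the + strand): gctggctggaTGATGCAAcgctggaggc
Herpud1 (chr19:10614874-10614901, printed from the + strand): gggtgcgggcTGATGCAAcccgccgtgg
Iars1 (chr17:15193659-15193686, printed from the + strand): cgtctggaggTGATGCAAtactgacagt
Tars1 (chr2:62114812-62114839, printed from the + strand): gctaaccagcTGATGCAAcgggacgcca
Mars1 (chr7:65023753-65023780, printed from the + strand): gagcccacgcTGATGCAAccggaacggg
Yars1 (chr5:146820191-146820212, printed from the + strand): cgagctcagcTGATGCAAcctg
Cars1 (chr1:208225335-208225362, printed from the + strand): ttccagaatcTGATGCAAccgcggcgcc
Ppp1r15b (chr13:47129812-47129839, printed from the + strand): taggtccggcTGATGCAActtgccgcgt

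Position was counted from the start, whose base is 0. The core began at -167 in Chac1, -235 in Slc1a4, -184 in Herpud1, -27 in Tars1, -24 in Iars1, -17 in Mars1 and 38 in Yars1. In Chac1 the upstream stretch reads as follows from the gene's own strand, on which the core appears as its reverse complement in capitals.

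Chac1 upstream (chr3:126795881-126796130, + strand): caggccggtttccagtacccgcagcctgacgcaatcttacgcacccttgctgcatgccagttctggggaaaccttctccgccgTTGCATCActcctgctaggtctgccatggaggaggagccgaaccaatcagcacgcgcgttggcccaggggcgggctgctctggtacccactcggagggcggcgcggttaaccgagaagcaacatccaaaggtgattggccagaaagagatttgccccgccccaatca

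The core was present in the window of 0.827% of all 27457 genes in the promoter table and of 61 of the 10218 tested genes that had a window (0.597%). Among genes that passed the test as higher in the high animals, 21 of 1313 held it (1.60%), against 2 of 301 lower genes (0.664%) and 38 of 8604 genes that did not pass (0.442%). In the 5 amino acid stress lists described next, 10 of 35 members that rose held it (28.6%), and 5 of 28 that did not pass held it too (17.9%). Among genes that rose outside these lists the share was 11 of 1278 (0.861%). Of the cytosolic tRNA synthetases, 7 of 12 that rose held it (58.3%) and 0 of 5 that did not pass. None of 16 mitochondrial tRNA synthetases held it. Mthfd2, Asns, Sesn2 and Ddit3 did not hold these letters in this window, and Trib3 and Slc7a1 held the looser form TGATGNAA, which occurs in 4.16% of all windows. A match is a run of letters and not a measured binding site.

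Chac1 was read by 1 probe set. Its log2 level was 7.77, 9.17 and 9.84 in the high animals (lowest, median, highest), 6.85, 7.39 and 9.17 in the middle animals, and 6.73, 7.18 and 7.68 in the low animals. Mthfd2, also read by 1 probe set, stood at 7.36, 8.19 and 8.50 in the high animals, 5.75, 6.73 and 8.35 in the middle animals, and 5.45, 6.12 and 7.57 in the low animals. The Chac1 levels of the groups did not overlap, while the Mthfd2 levels of a few animals did. Over the 120 animals with S code means removed, the SD was 0.75 for Chac1 and 0.73 for Mthfd2. The 2 genes had a Pearson r of 0.870 and a Spearman rho of 0.889 across these animals, whose points share an array each.

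The score is the mean of both genes in SD units. It ran from 0.676 to 2.35 in the high animals, from -0.715 to 0.653 in the middle and from -2.05 to -0.723 in the low. The last animal taken as high, animal 64, had a score of 0.676, and the first left out, animal 25, had 0.653, with a higher Chac1 level (8.94 against 8.72) and a lower Mthfd2 level (7.98 against 8.20). At the other end the last animal taken had -0.723 and the first left out -0.715. The ranking is continuous at both edges, with no gap between the groups.

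**Figure D1:**
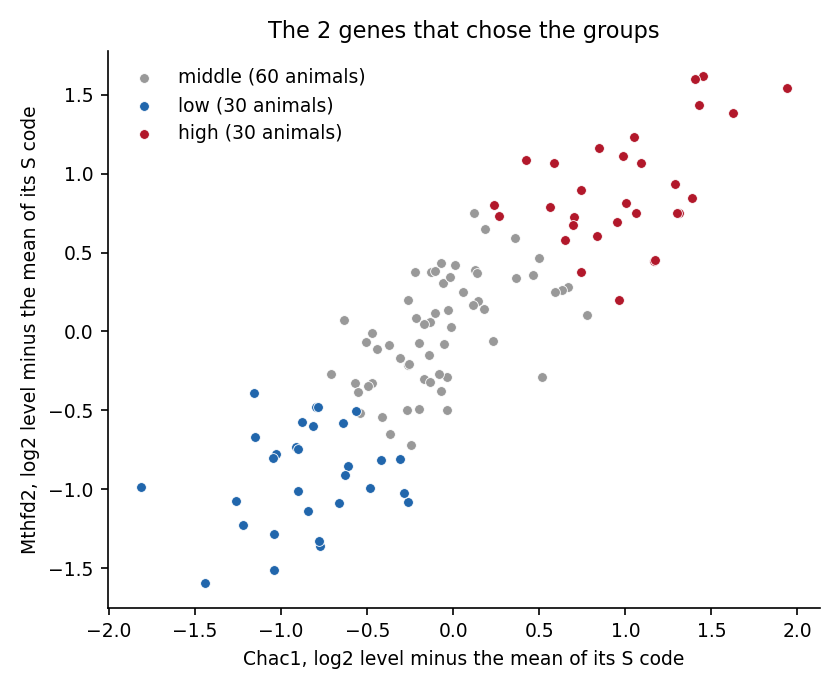
Chac1 (horizontal axis) against Mthfd2 (vertical axis) in each of the 120 animals, both as log2 levels minus the mean of the animal's S code. The high and low animals are the ends of 1 continuous cloud (r 0.870), because the rule takes them from there, and the 60 middle animals fill the space between.

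The codes were not evenly spread over the groups. S code 10, with 13 animals, had none in either group, and its Chac1 SD was 0.153 against 0.44 to 0.999 in the other codes. The other 9 S codes held animals of both groups, and the fit compares animals within them. S code 1 gave 5 high and 4 low of 11 animals, and S code 8 gave 3 and 1 of 12. S code means ran from 7.02 (S code 10) to 8.54 (S code 3) for Chac1. For Mthfd2 they ran from 6.24 (S code 10) to 7.96 (S code 2). High and low are thus relative to an animal's S code. Levels by group, and counts of animals above or below the other group, use deposited values that keep these offsets. Of the 22 L codes, 13 held high animals, 15 held low animals and 7 held both, with 28 high and low animals in these 7. L codes 1 to 10 held 20 high and 8 low animals, and L codes 18 to 22 held 1 high and 10 low of 38 animals. The L code took 35% of the variance of the score. This is a raw share: 22 codes of few animals each take some variance in any case, and no reference share was computed. The 75th percentile of the array was 0.0372 higher in the high animals (permutation within S codes, p = 0.0148, adjusted p = 0.0592 over 4 measures), and the 3' to 5' difference of actin, a sign of RNA integrity, was 0.068 higher (adjusted p = 0.149). The 75th percentile had a Pearson r of 0.330 with the score over the 120 animals with S code means removed. The array of animal 63, a low animal, was scanned again and stood apart from the rest, with a median correlation with other arrays of 0.937.

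Across 23324 tested probe sets, limma with the S code in the fit called 3025 (13%) at an adjusted p under 0.05, of which 2257 were higher and 768 lower in the high animals. With 1 probe set per gene, 1509 of 12324 genes were higher (12.2%) and 382 lower (3.10%). Most of these differences were small, since 18 genes rose and 2 fell by at least 1.5-fold, and 4 rose and 0 fell by at least 2-fold. Among the 18 genes up by 1.5-fold, 14 belonged to 5 lists of genes of the amino acid response, as did 11 of the 12 largest increases. The lists hold 73 of the 12324 genes tested. They were chosen with earlier results of these data known, so these counts are a description. These lists cover stress regulators, amino acid synthesis, amino acid transport, cytosolic tRNA synthetases and other ATF4 targets, 78 members in all. Chac1 and Mthfd2 chose the groups, 1 member was below the filter on low levels and 2 had no probe set, which left 73. Of the 73, 41 rose and 0 fell (48 and 2 at an unadjusted limma p under 0.05), and their median difference was 0.177 on the log2 scale, against 0.013 over all genes. All 41 had a middle-animal mean between the high and the low mean after S code means were removed, and 35 were higher in the high animals within 9 of 9 S codes.

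**Figure D2:**
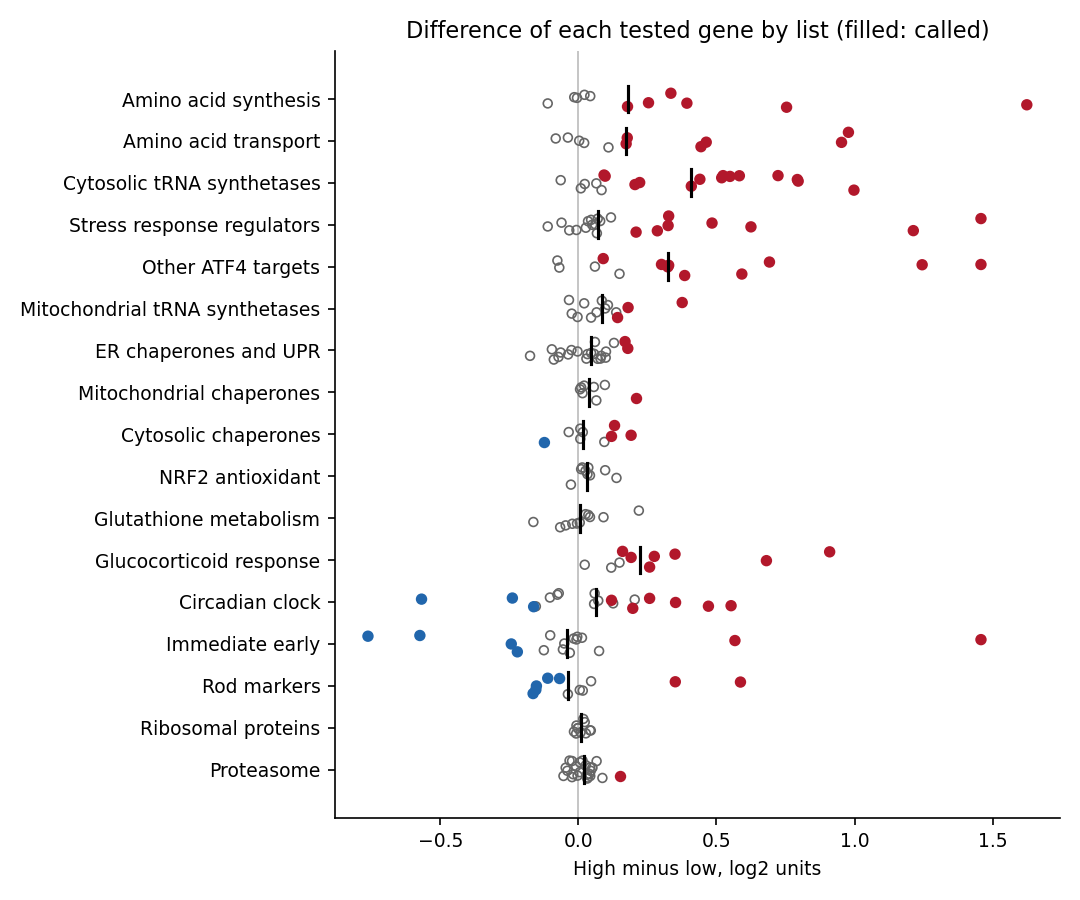
Log2 difference, high minus low, of each tested gene (point) in 17 lists, with filled points for genes with an adjusted p under 0.05 (red higher, blue lower) and a bar at the list median. The stress response lists reach furthest to the right, up to 1.62 for Asns, while ribosomal proteins (median 0.01) and proteasome subunits (median 0.02) sit at 0.

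Asns, which makes asparagine, had the largest difference of all genes. Its level was 7.84, 9.31 and 10.37 in the high animals and 7.14, 7.72 and 8.40 in the low animals (lowest, median, highest). Of the 30 high animals 29 lay above every low animal. The difference was 1.62 ± 0.100 (SE) on the log2 scale, a 3.08-fold higher level (limma adjusted p = 3.95e-19), and it was positive in 9 of 9 S codes, from 0.824 to 2.34. Aldh18a1, which starts proline synthesis from glutamate, stood at 7.31, 7.94 and 8.51 against 6.93, 7.25 and 7.56, a difference of 0.75 ± 0.055 (adjusted p = 4.99e-16).

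The synthesis list counted 6 of 11 members higher and 0 lower. Besides Asns and Aldh18a1 these were Gpt2, which makes alanine in mitochondria (0.39 ± 0.058), Psph (0.34 ± 0.059) and Psat1 (0.25 ± 0.049) of serine synthesis, and Shmt2, which passes the carbon of serine to folate (0.18 ± 0.039). A second Gpt2 probe set did not pass (0.10 ± 0.062). Phgdh, the first enzyme of serine synthesis, did not follow the later steps: its levels were 7.04, 7.56 and 7.81 in the high animals and 7.30, 7.67 and 8.01 in the low, a difference of -0.11 ± 0.039 (adjusted p = 0.0514). The groups overlapped throughout for Phgdh. Of the members that did not pass, Phgdh was the lowest and Got1 the highest (0.04), with Aldh1l2, Cbs and Mthfd1l between them.

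Of the amino acid transporters, 6 of 11 rose and 0 fell. Slc1a4, an exchanger of alanine, serine and cysteine, had the smallest p of all genes. It stood at 6.80, 7.68 and 8.15 in the high animals and 6.17, 6.58 and 7.17 in the low, and 28 high animals lay above every low animal. The difference was 0.98 ± 0.052 (adjusted p = 2.10e-21). Slc7a1, the importer of arginine and lysine, stood at 7.61, 8.60 and 9.61 against 6.56, 7.67 and 8.08, a difference of 0.95 ± 0.095 (adjusted p = 4.23e-11), and its differences within S codes ran from 0.233 to 1.89. Its second probe set also rose (0.61 ± 0.073). Slc7a5 and Slc3a2, the light and heavy chain of the leucine exchanger, rose by 0.46 ± 0.080 and 0.18 ± 0.034. Slc38a2, a sodium-driven carrier of small neutral amino acids, rose by 0.44 ± 0.040 and the glycine transporter Slc6a9 by 0.17 ± 0.029. The 5 transporters that did not pass lay between -0.08 (Slc7a3) and 0.11 (Slc7a11, the cystine importer, ± 0.053).

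The cytosolic tRNA synthetases, which load amino acids onto tRNA, had the largest median difference of the lists examined, 0.409, with 14 of 19 higher and 0 lower. Iars1, for isoleucine, stood at 8.11, 9.17 and 9.78 in the high animals and 7.13, 8.09 and 8.57 in the low (0.998 ± 0.072, adjusted p = 2.87e-16). Its second probe set, with a mean level of 4.39, rose by 0.17 ± 0.046. Tars1, for threonine, stood at 8.36, 9.06 and 9.62 against 7.94, 8.24 and 8.65 (0.80 ± 0.048, adjusted p = 1.50e-19). For Tars1, 28 of the high animals lay above every low animal, and for Iars1 26. Mars1 for methionine rose by 0.79 ± 0.057 and Yars1 for tyrosine by 0.72 ± 0.047. The synthetases for leucine, asparagine, alanine, cysteine, glycine and glutamate with proline followed, with 0.58 ± 0.062 for Lars1, 0.55 ± 0.043 for Nars1, 0.52 ± 0.037 for Aars1, 0.52 ± 0.047 for Cars1, 0.44 ± 0.047 for Gars1 and 0.41 ± 0.046 for Eprs1. All 3 further Cars1 probe sets rose as well (0.89, 0.70 and 0.42). Smaller increases were measured for Sars1 (0.22 ± 0.034), Rars1 (0.20 ± 0.032), Vars1 (0.10 ± 0.034) and Farsa (0.09 ± 0.028). Vars1 did not pass without animal 63 (adjusted p = 0.0567), had 0.01 with the L code in the fit, and its second probe set had -0.06. Farsa encodes the alpha chain of the phenylalanine enzyme, and its beta chain Farsb did not pass (0.06 ± 0.026). Hars1, Wars1, Kars1 and Qars1, for histidine, tryptophan, lysine and glutamine, lay between -0.06 (Qars1) and 0.08 (Hars1), with groups that overlapped almost entirely. Of the synthetases that mitochondria use, 3 of 13 rose, beside 12.2% of all genes, with a list median of 0.085. They were Yars2 (0.38 ± 0.090), Hars2 (0.18 ± 0.055) and Tars2 (0.14 ± 0.032). Second probe sets of Hars2 (0.12) and Tars2 (0.03) did not pass. In a regression on the score over all 120 animals 6 of the 13 passed, and with the L code or 5 principal components in the fit 0 of the 13 did. The difference between the cytosolic and the mitochondrial list was not tested.

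**Figure D3:**
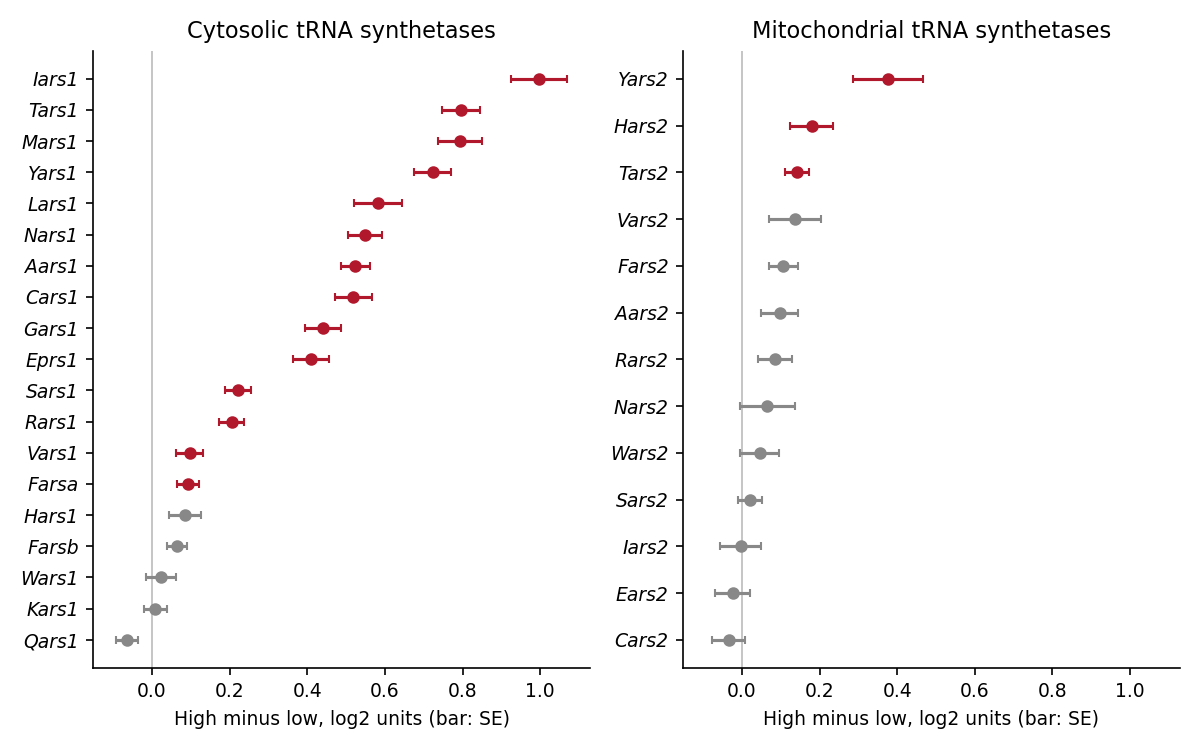
Log2 difference, high minus low, with its SE for each tRNA synthetase of the cytosol (left) and of mitochondria (right), red where the adjusted p was under 0.05. Of the cytosolic enzymes 10 lie above 0.4, with Iars1 at 0.998, while Qars1, Kars1, Wars1, Farsb and Hars1 lie within 0.1 of 0 and the mitochondrial enzymes stay below 0.4.

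Among the regulators, 8 of 21 rose and 0 fell. Apart from Eif2b3, given below, the increases were in transcription factors and feedback genes. The transcription factors Atf5 (0.12 ± 0.050), Jdp2 (-0.11) and Nupr1 did not pass. Atf3, a stress-induced repressor, stood at 6.80, 8.17 and 8.81 in the high animals and 5.52, 6.72 and 7.33 in the low (1.46 ± 0.103, adjusted p = 1.29e-16), with 27 high animals above every low animal. Trib3, a pseudokinase that restrains ATF4 and AKT, stood at 6.80, 7.32 and 7.94 against 5.37, 6.02 and 7.17 (1.21 ± 0.083, adjusted p = 2.77e-17). Here the low animals were the more spread group, and both further Trib3 probe sets rose by more (1.45 and 1.49). Ddit3, which encodes the stress factor CHOP, rose by 0.62 ± 0.043. The RefSeq models of Ddit3 and Mars1 overlap in GRCr8, and whether their probe sets give separate readings was not tested.

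Cebpg, a partner of ATF4, rose by 0.48 ± 0.028 and Cebpb, another C/EBP protein, by 0.33 ± 0.068. Atf4 itself had little spread. Its levels were 11.72, 11.82 and 11.95 in the high animals and 11.26, 11.45 and 11.80 in the low, and 25 low animals lay below every high animal. The difference was 0.32 ± 0.027 (adjusted p = 5.53e-14), a 1.25-fold higher level. Ppp1r15b, a subunit of the phosphatase that keeps eIF2 alpha unphosphorylated at rest, rose by 0.29 ± 0.061, while its stress-induced relative Ppp1r15a had -0.03 ± 0.041 and did not pass. Of the eIF2B subunits, the exchange factor that phosphorylated eIF2 blocks, Eif2b3 rose (0.21 ± 0.044). The 4 kinases of eIF2 alpha did not pass, with 0.04 ± 0.045 for Eif2ak4 (GCN2, which senses uncharged tRNA) and 0.05 ± 0.047 for Eif2ak3 (PERK, which senses the endoplasmic reticulum). An array of RNA does not read their activity.

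Of the other ATF4 targets 9 of 13 rose, Atf3 and Cebpb among them, with a median of 0.324. Sesn2, which restrains the growth kinase mTORC1 and binds leucine, stood at 6.76, 7.88 and 8.50 in the high animals and 5.95, 6.48 and 7.15 in the low (1.24 ± 0.075, adjusted p = 1.78e-19), a 2.37-fold higher level, with 28 high animals above every low animal. Its second probe set, with a mean level of 4.71, rose by 0.65 ± 0.085. Herpud1, of the degradation route at the endoplasmic reticulum, stood at 9.23, 9.51 and 9.73 against 8.42, 8.80 and 9.30 (0.69 ± 0.039, adjusted p = 2.20e-20). Gdf15, a secreted stress hormone, rose by 0.59 ± 0.067, the lipoprotein receptor Vldlr by 0.38 ± 0.042 with 3 further probe sets higher too (0.49, 0.55 and 0.40), the vessel growth factor Vegfa by 0.32 ± 0.046, the tRNA exporter Xpot by 0.30 ± 0.054 and Ndrg1 by 0.09 ± 0.025. A second Vegfa probe set (0.18 ± 0.067) and a second Ndrg1 probe set (-0.05 ± 0.072) did not pass. The 4 members that did not pass lay between -0.08 (Fgf21) and 0.15 (Ddit4), with Stc2 and Eif4ebp1 between these.

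**Figure D4:**
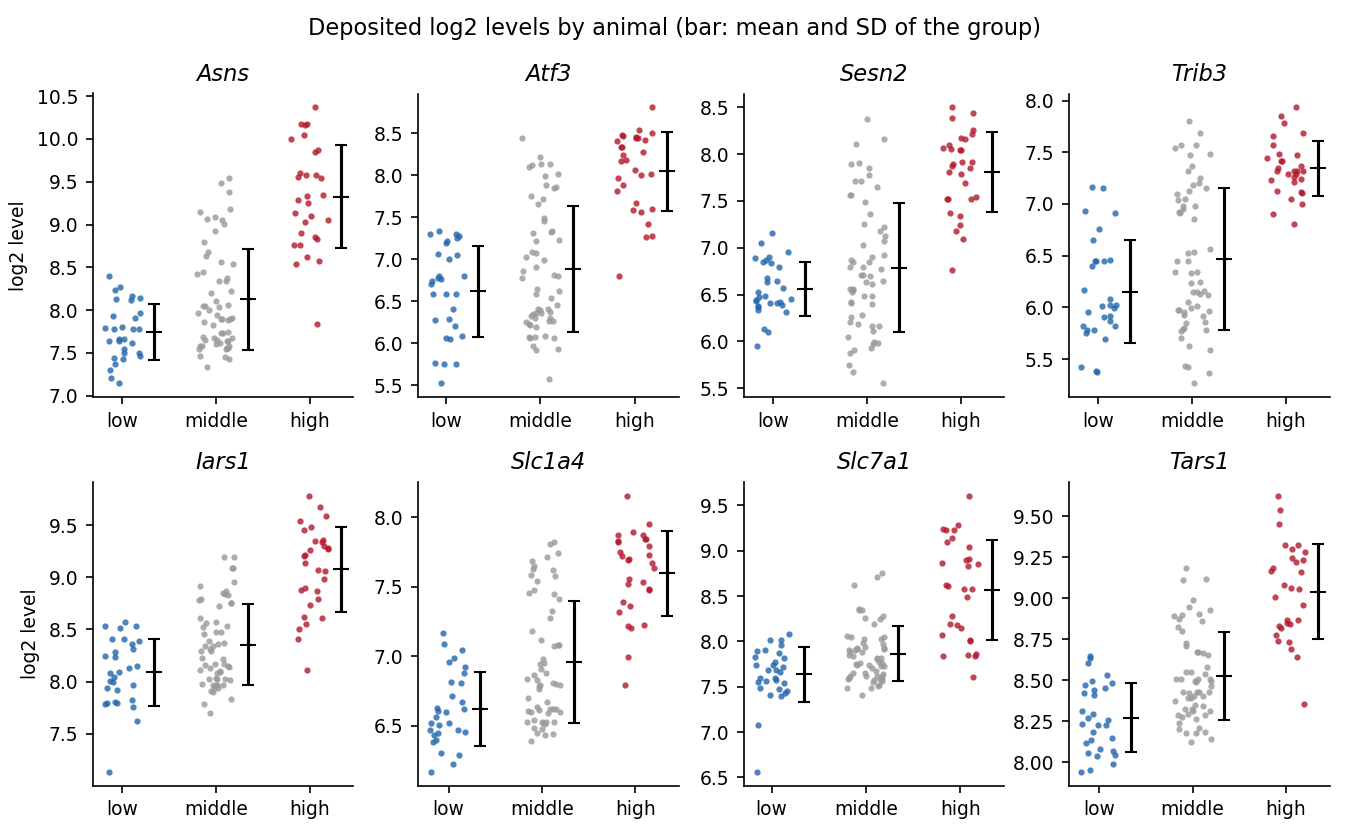
Deposited log2 level of 8 genes in each low, middle and high animal (point), with the mean and SD of each group as a bar. For Asns the high animals reach 10.37 and the low animals 8.40, the middle animals span both, and 1 high animal (animal 100, 7.84) lies among the low ones.

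The same few animals made up the ends of these distributions. Animal 100, whose score was high for its S code although its Chac1 level was the lowest of the high group (7.77), was the lowest high animal for 10 of the 12 genes with the largest increases. Animal 63, whose array stood apart, was the lowest low animal for 7 of the 12. Leaving out animal 63 gave differences of 1.61 for Asns, 0.96 for Slc1a4 and 0.91 for Slc7a1, and 40 of the 73 list members still rose. Without it Phgdh and Qars1, which had not passed, were called lower, and 547 genes in all were called lower in place of 382.

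The genes whose level went along most closely with the score over all 120 animals were Tars1 (Pearson r 0.943), Slc1a4 (0.938), Asns (0.929), Yars1 (0.928), Cebpg (0.925), Herpud1 (0.925), Nars1 (0.907), Iars1 (0.906), Mars1 (0.905) and Aars1 (0.896). All 10 are members of the 5 lists. These correlations describe 120 arrays with S code means removed, and each gene shares its array with Chac1 and Mthfd2. Outside the lists, the genes of smallest p were Siah2, a ubiquitin ligase (0.57 ± 0.051, adjusted p = 6.30e-13), Ptpn21, a tyrosine phosphatase (0.46 ± 0.045), Zfp143, a zinc finger activator (0.62 ± 0.062), and Zbtb8a (0.46 ± 0.046).

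The leading genes were also called with the L code added to the fit as a further term beside the S code. Of the 41 list members 29 then rose, with a median over the 73 of 0.182, and Asns differed by 1.72, Sesn2 by 1.22 and Slc1a4 by 0.95. The 12 that lost the call were Cebpb, Eif2b3, Farsa, Gdf15, Ndrg1, Ppp1r15b, Psph, Shmt2, Slc3a2, Slc6a9, Slc7a5 and Vars1. Outside the lists 90 of the 1468 higher genes passed, and 120 genes were higher and 8 lower in all. Only 7 L codes, with 28 high and low animals, held both groups, so fewer animals bear directly on the difference in this fit. A call lost with the L code need not go with a smaller difference. With the first 5 principal components in the fit 30 of the 41 rose, against 138 of the 1509. The components were computed from probe sets past the filter, the list genes, Chac1 and Mthfd2 among them. Over the 120 animals the score had a Pearson r of 0.487 with component 4, -0.420 with component 2 and 0.329 with component 5. This fit therefore takes out part of the score's own variation. With the array's 75th percentile in the fit, 956 genes were higher and 750 lower, so the share of higher genes among those called went from 79.8% to 56%, while 38 of the 41 list members rose.

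Lists of neighbouring stress programmes were read in the same fit. Of 21 chaperones and unfolded protein genes of the endoplasmic reticulum 2 rose (Dnajb9, 0.17 ± 0.054, and Edem1, 0.18 ± 0.063) and 0 fell, with a median of 0.046. Herpud1, of the degradation route there (0.69 ± 0.039), was counted in the ATF4 list and not in this one. Further Edem1 probe sets (0.12 and 0.04) did not pass. In a regression on the score over all 120 animals 8 of the 21 were higher and 1 lower, and with the array's 75th percentile or 5 principal components in the fit 0 rose. Of 8 mitochondrial chaperones and proteases Hspa9, which encodes the import motor mortalin, rose (0.21 ± 0.039). In limma 0 of 9 antioxidant targets of NRF2 passed (0 at an unadjusted p under 0.05) and 0 of 11 genes of glutathione metabolism (2 at an unadjusted p under 0.05). Among 9 cytosolic chaperones Hspa4l (0.19 ± 0.044), Hsph1 (0.13 ± 0.040) and Bag3 (0.12 ± 0.035) rose and Hspa1a (-0.12 ± 0.037) fell. A second Hsph1 probe set did not pass (0.16 ± 0.06). Of 9 p53 targets 3 rose, namely Sesn2, which is also in the ATF4 list, Mdm2 (0.16 ± 0.033) and Bbc3 (0.13 ± 0.041). None of the 11 ribosomal protein genes and none of the 12 interferon response genes passed in limma, and 0 of them did at an unadjusted p under 0.05. The share of higher genes was below the array's 12.2% in the NRF2, glutathione, ribosomal, interferon and, without Herpud1, endoplasmic reticulum lists. For the cytosolic chaperones and the p53 targets, 3 of 9 each, it was above it, and for the mitochondrial chaperones, 1 of 8, close to it. With the L code in the fit 0 of the members of these lists other than Sesn2 passed.

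Genes induced by glucocorticoid hormones rose in 7 of 10 cases and fell in 0, with a median of 0.225. Over all genes 12.2% were higher. Fkbp5, which dampens the glucocorticoid receptor, stood at 6.76, 7.72 and 8.62 in the high animals and 6.53, 6.94 and 7.79 in the low, and 13 high animals lay above every low animal (0.68 ± 0.094, adjusted p = 2.99e-07). Its second probe set rose by 0.49. Pdk4, which blocks the entry of pyruvate into mitochondrial oxidation, stood at 6.91, 8.06 and 9.21 against 5.50, 7.14 and 8.98 (0.91 ± 0.164, adjusted p = 5.66e-05). The Pdk4 groups overlapped almost fully, and its second probe set did not pass (0.14 ± 0.084). Tsc22d3, which encodes the anti-inflammatory protein GILZ, rose by 0.35 ± 0.080 and Klf9 by 0.28 ± 0.060, although a second Klf9 probe set had -0.09 ± 0.093. Per1, Mt2A and Sgk1, named after their values were seen to complete the count, rose by 0.26, 0.19 and 0.16. With the L code in the fit Fkbp5 (0.65) and Pdk4 still rose, and with 5 principal components 0 of the 10 did.

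Of 18 circadian clock genes 6 rose and 3 fell, beside 12.2% higher and 3.10% lower over all genes. Bmal1, the partner of CLOCK in driving the clock, stood at 7.83, 8.28 and 8.52 in the high animals and 7.31, 7.91 and 8.26 in the low (0.35 ± 0.043, adjusted p = 1.38e-08). Nfil3, a repressor of the clock's output, stood at 6.22, 6.87 and 7.35 against 5.80, 6.48 and 6.78 (0.47 ± 0.055, adjusted p = 4.18e-09), and 21 high animals lay above every low animal. Rora rose by 0.55 ± 0.185. Rorb, a nuclear receptor needed for rod development, fell: it stood at 6.05, 6.64 and 7.61 against 5.62, 7.34 and 8.14 (-0.57 ± 0.102, adjusted p = 5.60e-05). Per1 (0.26), Cry1 (0.20) and Clock (0.12) completed the 6 that rose, and Dbp (-0.24) and Per3 (-0.16) the 3 that fell, all named after their values were seen. Further probe sets of Clock (0.06, 0.07 and -0.06), Per3 (-0.09) and Rorb (-0.16) did not pass. The hour at which an animal was killed is not given in the sources used here. With the L code in the fit Bmal1 and Nfil3 were the 2 clock genes that passed.

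Immediate early genes are switched on within minutes of a stimulus. Of 16 such genes 2 rose and 4 fell, beside 12.2% higher and 3.10% lower over all genes. Those that rose were Atf3 and Jun, which stood at 8.26, 9.20 and 10.17 in the high animals and 7.92, 8.65 and 9.27 in the low (0.57 ± 0.092, adjusted p = 9.03e-06). Egr1 fell, at 7.48, 8.08 and 9.17 against 7.53, 9.04 and 10.32 (-0.76 ± 0.157, adjusted p = 4.59e-04), and Fos fell by 0.57 on the log2 scale (SE 0.192, adjusted p = 0.0380). The Egr1 decrease was the largest of all genes, although the groups overlapped and it held in 7 of 9 S codes. A second Fos probe set did not pass (-0.18 ± 0.118). Junb (-0.24) and Nr4a1 (-0.22), named after their values were seen, completed the 4. With the L code in the fit Atf3 alone passed, and Egr1 had -0.69 (adjusted p = 0.173).

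**Figure D5:**
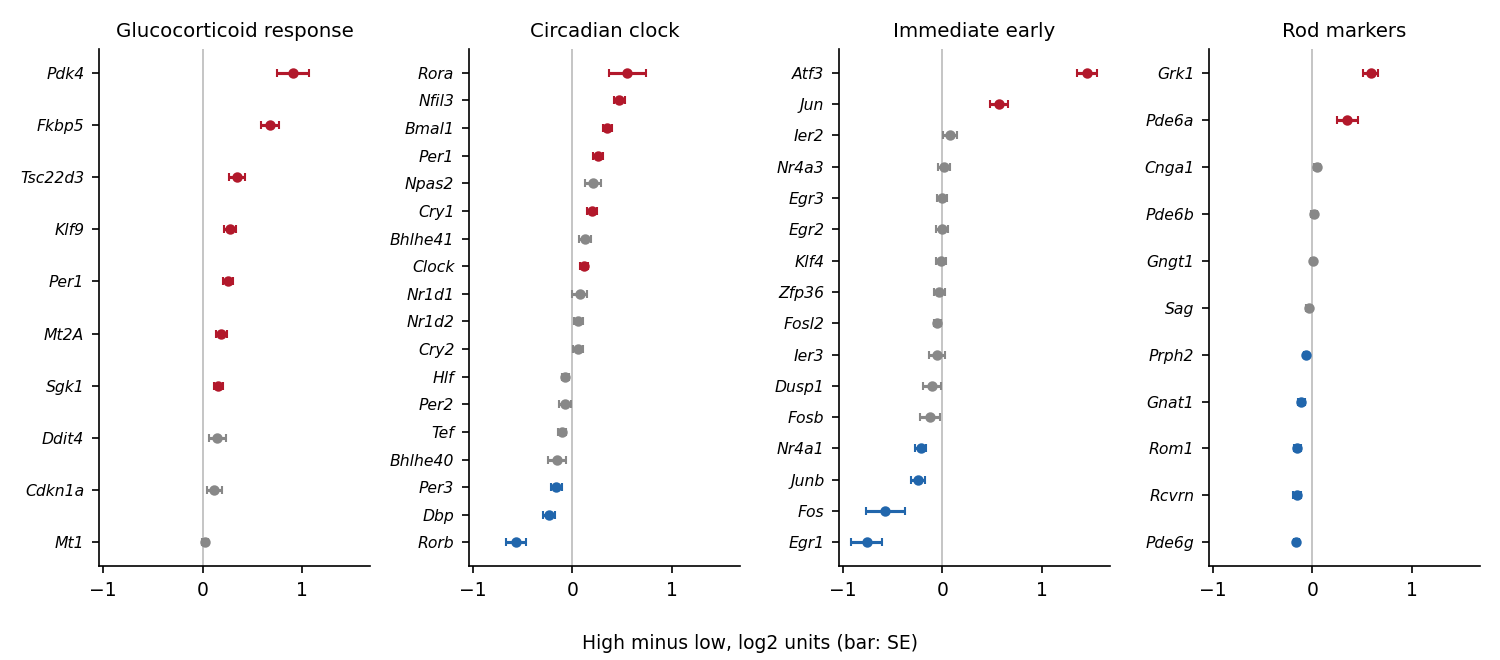
Log2 difference, high minus low, with its SE for each tested gene of 4 lists, red where higher and blue where lower at an adjusted p under 0.05. Glucocorticoid-induced genes lie at or right of 0, the clock and immediate early lists hold genes on both sides, and among rod genes Grk1 and Pde6a lie right of 0 and 5 others slightly left.

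The cell types of the eye were followed through their markers. In bulk RNA, fewer cells of a type and less RNA per cell cannot be told apart. Markers of the labelled tissue were abundant: the mean level of 15 lens genes was 12.69 to 12.97 in the high animals and that of 11 rod genes 11.59 to 11.94. Skeletal muscle genes, known from the eye muscles, were also high, with a mean level of 9.87 to 10.53 in the high and 9.74 to 10.65 in the low animals, and 0 of 19 differed in limma (0 at an unadjusted p under 0.05). No gene passed among 15 lens, 7 pigment epithelium, 7 melanocyte, 13 fibroblast, 4 red cell, 4 orbital gland and 5 myelin markers, of which 1 was higher and 2 lower at an unadjusted limma p under 0.05. Of 13 genes of the cornea and conjunctiva 3 rose, beside 12.2% of all genes. They were Krt19 (0.25 ± 0.062), Pkp1 (0.15 ± 0.042) and Krt15 (0.10 ± 0.029). None of the 13 passed with the L code or 5 principal components in the fit. The mean level of that list was 11.18 to 11.56 in the high animals and 10.96 to 11.52 in the low. Its part in the results was not tested.

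The rod markers divided. Grk1, the kinase that shuts off rhodopsin, stood at 8.90, 9.24 and 9.66 in the high animals and 7.74, 8.62 and 9.37 in the low (0.59 ± 0.078, adjusted p = 1.35e-07), and 19 low animals lay below every high animal. Pde6a, a catalytic subunit of the rod phosphodiesterase, rose by 0.35 ± 0.107. Its inhibitory subunit Pde6g fell, at 12.07, 12.59 and 12.79 against 12.51, 12.69 and 12.89 (-0.16 ± 0.026, adjusted p = 6.75e-06), and was lower in 9 of 9 S codes. Rcvrn fell by 0.15 on the log2 scale (SE 0.043), and Rom1 (-0.15), Gnat1 (-0.11) and Prph2 (-0.07), named after their values were seen, also fell. The rod list as a whole, 2 higher and 5 lower of 11, had a median of -0.04. Over all genes 12.2% were higher and 3.10% lower. With the L code in the fit Pde6g alone passed, and Grk1 differed by 0.23 (adjusted p = 0.327).

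The 12 largest decreases were those of Egr1, Gfap, Fos, Rorb, Rbp3, Edn2, Pcdh15, Nlgn2, Impg2, Cacna2d1, Celf2 and Tmem243, from -0.76 to -0.29. Further Celf2 probe sets (-0.3 and 0.15) did not pass. With 5 principal components in the fit none of the 12 was called lower, Celf2 was called higher (0.33, limma adjusted p = 0.0493), and Nlgn2 (0.14) and Cacna2d1 (0.05) turned direction without passing. Rbp3, the retinoid carrier between photoreceptors and pigment epithelium, fell by 0.43 on the log2 scale (SE 0.121). Impg2 of the matrix around photoreceptors fell by 0.31 (SE 0.093), Pcdh15, a cadherin of photoreceptors and hair cells, by 0.36 (SE 0.093), and Gnb3, the beta chain of cone transducin and 1 of 8 cone markers, by 0.28 (SE 0.062). Gfap, the filament of astrocytes that Müller glia make when the retina is damaged, stood at 5.85, 6.57 and 8.31 in the high animals and 5.54, 7.40 and 9.23 in the low (-0.60 ± 0.180, adjusted p = 0.0175). The Gfap levels of the groups overlapped over most of their range, and the other 8 tested markers of Müller glia and astrocytes did not pass. With the L code in the fit Rbp3 (-0.43), Gfap (-0.49), Impg2 (-0.16), Pcdh15 (-0.11) and Gnb3 (-0.05) did not pass. The Rbp3 and Gfap differences stayed near those of the fit without it, while those of Impg2, Pcdh15 and Gnb3 moved toward 0.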

How the data were processed

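RNA of whole eyes was measured on 1 Affymetrix array for each of 120 F2 rats, both eyes of an animal together. The authors deposited log2 values made by RMA, per the submitters' processing notes, in a table of 31099 probe sets. RMA brings the arrays' distributions closer, so a change shared by most genes can be hidden, and a probe that fits the transcript of 1 parent strain poorly can look like a change in level. Probe sets were named through the platform annotation and a RefSeq table of GRCr8 (20826 with 1 symbol, 436 with several, 9780 with none). Those with a mean of at least 4.283 (the 25th percentile) were tested, leaving out controls, Chac1 and Mthfd2, and a gene was represented by its probe set of highest mean. High and low animals were compared with limma 3.58.1 (R 4.3.3), with the S code as a factor and Benjamini-Hochberg adjustment over 23324 probe sets. The p-values measure the spread between animals and single arrays, and the number of arrays limits the precision. Data of this design were simulated with probe sets that varied independently. In them 83.6% of 67 probe sets shifted by 0.25 and 98.5% of 67 shifted by 0.5 were called. Correlation between genes and a choice of groups by measured levels were not simulated. Array quality was tested by 100000 permutations within S codes, two-sided. The members and lists were chosen with earlier results of these data known. Genes to name were drawn from the members of the 5 lists, the 12 called genes of largest increase or decrease, the 12 of smallest p, the 10 of largest r and up to 4 called members of each other list. Alternatives were other covariates, filters, group sizes, scores, scalings, arrays left out and second probe sets.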

Additional observations from a re-analysis of the deposited data

How the results depend on the processing

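Members of the 5 amino acid stress lists called higher numbered 41, and 29 (L code) to 48 (regression) over the alternatives run, but the counts over the whole array moved. The 3025 probe sets called, 1509 genes higher and 382 lower became 203, 120 and 8 with the L code added, 324, 171 and 28 with 5 principal components, 1569, 928 and 90 without the S code, 1652, 900 and 132 with 20 animals per group, and 6292, 2580 and 1037 in a regression on the score over 120 animals. At an adjusted p under 0.01, 1481 probe sets were called. With the array's 75th percentile in the fit 956 genes were higher and 750 lower. The lower genes numbered 174 with groups chosen on Chac1 alone, 758 when S code means were kept in the score, and 670 without animals 63 and 15. With rescanned arrays left out they numbered 504. The cause of these shifts was not tested, and fewer animals or more terms leave fewer degrees of freedom. Leaving out each S code in turn gave 1694 to 4229 probe sets, 1004 to 1862 genes higher, 127 to 702 lower, and 39 to 42 list members higher and 0 to 1 lower. The extremes came without S code 6 (1694 probe sets, 127 lower) and without S code 1 (702 lower), and S codes 4, 5 and 9 gave 190, 143 and 218 lower. S code 10 held no animal of either group. In place of 0, the list members called lower were 1 (with the 75th percentile, the stricter filter, the middle animals in the fit, the array median subtracted, rescanned arrays left out, or animals 63 and 15 left out) or 2 (in the regression, with S code means kept, or without animal 63, an alternative chosen after seeing the data). The gene was Phgdh in each of these except with the 75th percentile and with rescanned arrays left out, where it was Qars1, and the second gene was Fgf21 in the regression and with S code means kept, and Qars1 without animal 63. The array 75th percentile differed by 0.0324 with 40 animals per group and 0.0265 without animals 63 and 15, both past the threshold. No paired analysis was possible because the labels give no replicate numbers shared between the groups, and the S code served as a block in every fit except the one without it.

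Of 2991 pairs of a named gene and an alternative, 2480 kept direction and side of the threshold, 465 lost the call and 30 changed direction. Most genes that changed direction differed little from 0. With the actin and GAPDH terms these were Eif2ak4 (-0.013) and Ppp1r15a (0.011), and with the 75th percentile Eif2ak3 (-0.041), Eif2ak4 (-0.028), Kars1 (-0.028) and Wars1 (-0.015). With 5 principal components these were Cacna2d1 (0.051), Celf2 (0.328, called higher), Clock (-0.014), Eif2ak3 (-0.058), Eif2ak4 (-0.028), Gnb3 (0.017), Hars2 (-0.008), Nlgn2 (0.139), Phgdh (0.039), Ppp1r15a (0.014), Slc7a11 (-0.039) and Thy1 (0.021). With 40 animals per group Eif2ak4 had -0.011 and Ppp1r15a 0.009, and with Chac1 alone Ppp1r15a had 0.027 and Wars1 -0.010. Kars1 had -0.006 without rescanned arrays, -0.002 without animal 63 and -0.005 to 0.02 with single S codes left out. Second probe sets turned Hars1 (-0.017), Klf9 (-0.094), Ndrg1 (-0.053), Vars1 (-0.063) and Wars1 (-0.005).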

Other observations

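A few further genes in lists of other functions passed the limma test between the high and the low animals. Of 13 genes of cholesterol synthesis 0 rose and 2 fell, Dhcr7 (-0.13 ± 0.042) and Msmo1 (-0.11 ± 0.037). Of 22 respiratory chain genes Ndufa4 fell (-0.12 ± 0.028), and of 24 proteasome subunits Psmc6 rose (0.15 ± 0.043). Further Psmc6 probe sets (0.16 and 0.07) did not pass. Of 13 cell cycle genes Tyms, which makes thymidylate with a folate cofactor, rose (0.20 ± 0.066). Among retinal markers Prkca of rod bipolar cells rose (0.19 ± 0.048), while Tfap2b of amacrine cells (-0.17 ± 0.048) and Thy1 of ganglion cells (-0.12 ± 0.042) fell. Further probe sets of Tfap2b (-0.19 and -0.15) and Thy1 (-0.19) did not pass. The macrophage marker Cd163 rose (0.22 ± 0.074) as 1 of 12 genes of its list, and the vessel marker Egfl7 fell (-0.14 ± 0.041) as 1 of 9. These lists each had 1 or 2 genes past the threshold, beside 12.2% higher and 3.10% lower genes on the whole array. None of the 10 genes named here passed with the L code in the fit.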
